A study of Mus musculus with 6 samples.

Results

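Chromatin remodellers, histone deacetylases and bromodomain genes were followed in mouse embryonic stem cells that stably expressed an shRNA against Pcl2, a Polycomb-like gene that the array annotation lists as Mtf2. The genes were taken by their symbols: those beginning with Smarc, Chd, Arid (families 1 to 5), Hdac, Mta, Mbd (1 to 6), Ino80, Bptf or Brd. Probe sets annotated to a single gene gave 66 such genes, measured by 153 of the 34945 single-gene probe sets, and 60 of the 66 were bright enough to be tested among 13095 genes. For each gene the probe set with the highest mean over the 6 arrays stood for the gene.

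The arrays were Affymetrix Mouse Genome 430 2.0 GeneChips hybridised with RNA of R1 embryonic stem cells, an established mouse line, labelled as undifferentiated. Values are MAS5 signals, the authors' linear intensity summary of each probe set, scaled to a common average on every array. The treated group held 3 biological replicates of cells stably carrying the Pcl2 shRNA, all from 1 shRNA clone. The control group held 3 biological replicates of cells stably carrying a mismatch sequence in place of the shRNA, and nothing else in their labels set the groups apart. The embryonic stem cell medium of the protocol holds serum and leukemia inhibitory factor (LIF), and the selection medium adds G418. Because the shRNA cells came from 1 clone, the shRNA and the clone cannot be told apart, and p-values measure the spread between these cultures only.

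Chromatin remodellers are ATP-driven machines that slide, eject or exchange nucleosomes. They fall into the SWI/SNF, ISWI, CHD and INO80 families, each built from an ATPase and partner subunits that can be swapped between paralogues. Histone deacetylases remove acetyl groups, often inside NuRD, Sin3 or CoREST complexes, and bromodomains read the acetylated lysines. In embryonic stem cells the SWI/SNF complex is known for a particular subunit make-up, with Smarca4 as the ATPase and Smarcc1 and Smarcd1 among its partners.

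Of the 60 genes tested, 8 changed (13.3%), against a background of 12.6 percent of all genes tested. Smarcd3, Ino80, Arid5b, Chd2 and Arid4a rose, and Chd7, Smarce1 and Arid2 fell. The test was limma on log2(signal + 7), with Benjamini-Hochberg adjustment over all 13095 genes and an adjusted p of 0.05 as the threshold. The 5 risen genes were 8.33% of the 60, against a background of 4.46 percent rising among all genes, and the 3 fallen genes were 5%, against 8.16 percent falling. The share called thus lay near the background. An unadjusted limma p under 0.05 was found for 16 of the 60 genes, against 3417 of all 13095. Counts of unadjusted p by family, given below, stand against that share. The median log2 change was -0.06 over the 60 genes and 0.02 over all genes tested, and the median size of the change was 0.19 against 0.27. On 21 of the 60 genes the arrays of the groups did not overlap, 10 with every shRNA array above every control array and 11 below, or 35%, against 31.2 percent of all genes.

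Same-numbered arrays of the groups varied together, and a fit with the replicate number as a block called 15 of the 60 genes (25%), all 8 above among them, against 23.8 percent of all genes. It added Smarcad1 to the genes that were higher, a side on which 9.97 percent of all genes lay. It added Arid3a, Arid3b, Chd3, Hdac7, Ino80c and Mta1 to those that were lower, a side with 13.8 percent of all genes. These 7 are called changed below only with the block named. Arrays measure pooled RNA, so fewer cells of a type and less RNA per cell cannot be told apart.

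**Figure D1:**
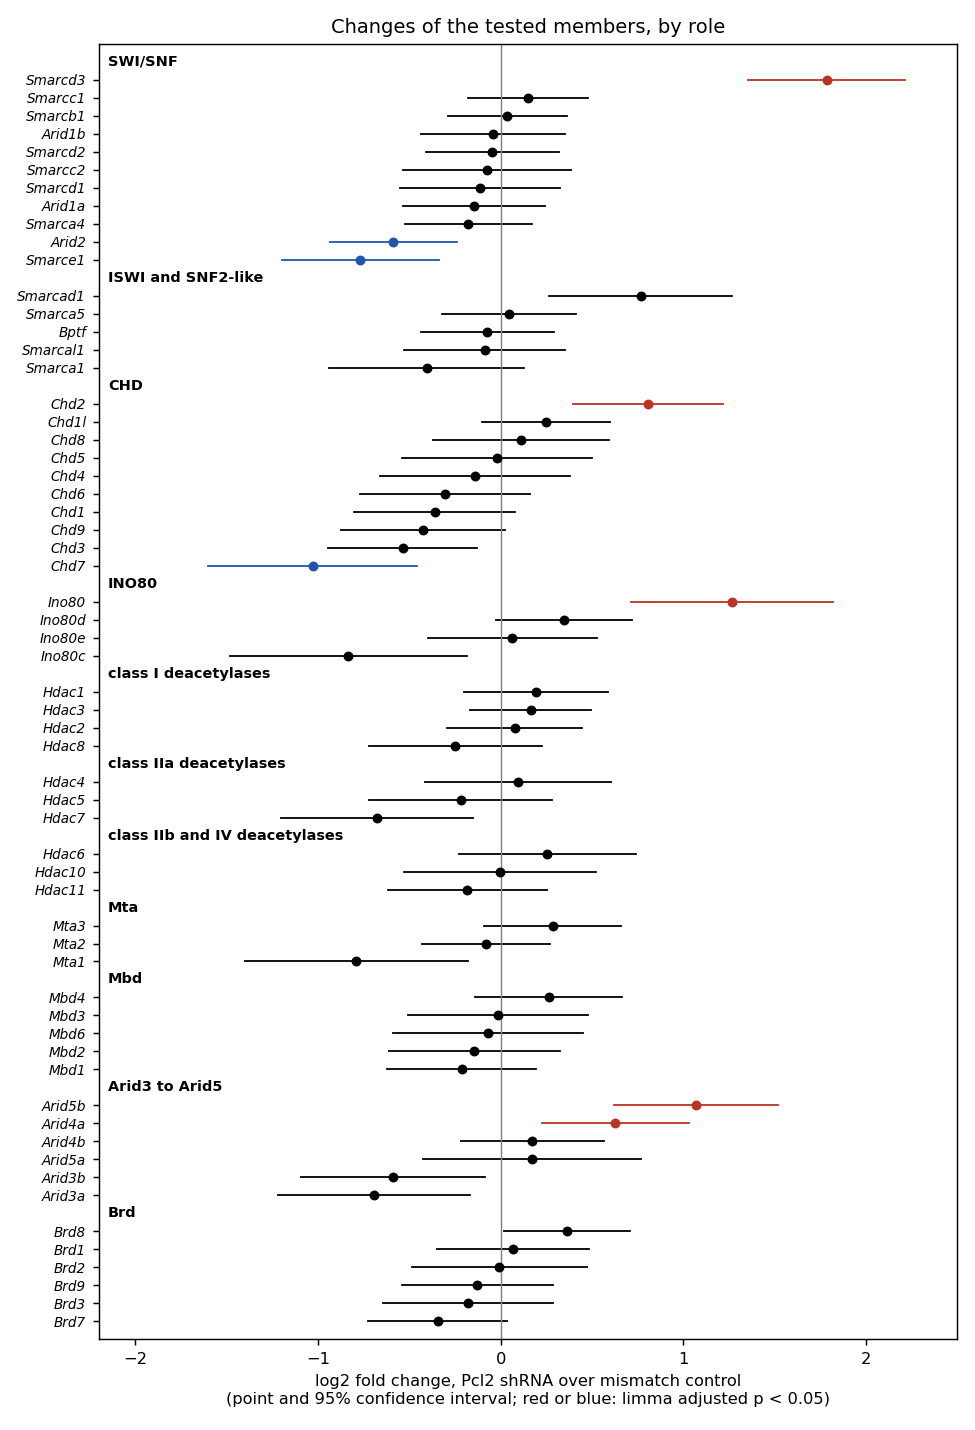
Log2 change of each of the 60 tested genes, Pcl2 shRNA over mismatch control (horizontal axis), with its 95% confidence interval, ordered by family. The 5 red genes rose and the 3 blue genes fell past the threshold, while the intervals of the class I deacetylases and of most SWI/SNF subunits span 0.

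The targeted gene was lower in every shRNA array by its brightest probe set. Mtf2 had a signal of 1723 ± 220.0 (SD, n = 3) in control arrays and 1028 ± 150 (SD, n = 3) in shRNA arrays, which is 59.7% of control (log2 change -0.74, SE 0.17, limma adjusted p = 0.0157). Without control replicate 1 the adjusted p was 0.0594, and without shRNA replicate 3 it was 0.058. Further Mtf2 probe sets with log2 changes of -0.68, -0.75 and -0.73 also separated the groups. The remaining ones were much dimmer and overlapped, with 51.2 ± 10.8 and 61.7 ± 9.40 (log2 change 0.25) and with 14.5 ± 8.14 and 11.7 ± 3.40 (log2 change -0.15). Across the arrays, the 2% trimmed mean was 150.001 on each, and the beta-actin 3′ to 5′ ratio was 1.14 to 1.22 in control and 1.18 to 1.33 in shRNA arrays. The highest bacterial control signal without a spike, a gauge of background, was 11.2 to 12.1 in control arrays and 18.0 to 20.3 in shRNA arrays.

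Markers of cell state moved with the shRNA. Of 12 embryonic stem cell markers tested, 7 rose (Sox2, Zfp42, Esrrb, Klf4, Tdgf1, Fgf4, Dppa4) and 0 fell, and none was at background. Pou5f1, Nanog, Dppa5a, Utf1 and Lin28a did not pass in either direction. The summed signal of the 12 was 25142 to 32002 in control and 40755 to 52175 in shRNA arrays. Of 10 trophectoderm markers tested, 4 fell (Cdx2, Krt8, Krt18, Krt7) and 0 rose, and the summed signal of the list was 5109 to 9645 in control and 1200.1 to 1632 in shRNA arrays, with Gata3 at or below background on all 6 arrays. Of 7 primitive endoderm markers, 3 fell (Dab2, Col4a1, Sparc) and 1 rose (Lama1), with sums of 2848 to 4323 and 1531 to 1910, and Afp was at or below background throughout. Of 9 fibroblast markers tested, 0 passed limma's test in either direction (1 had an unadjusted p under 0.05), with sums of 483 to 1307 and 374 to 844, and Dcn and Lum were at or below background on all 6 arrays. The part of these shifts in the results below was not tested.

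In the SWI/SNF family the gene that moved furthest was Smarcd3, which encodes BAF60c, a subunit known from heart and muscle development. Its signal was 51.6, 41.5 and 43.8 in control replicates 1 to 3 and 184, 182 and 156 in shRNA replicates 1 to 3. Every shRNA array was above every control array, with a wide gap between the groups. The mean rose from 45.6 ± 5.30 to 174 ± 15.6 (SD, n = 3 each), a log2 change of 1.78 (SE 0.19, limma adjusted p = 0.00039), which ranked 39 among the rises of all genes tested. Leaving out any single array kept the adjusted p between 0.00107 and 0.00401.

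The paralogues of Smarcd3 did not pass the test. Smarcd1, which encodes BAF60a, had 561 ± 149 in control and 509 ± 48.5 in shRNA arrays (log2 change -0.11, 95% confidence interval -0.55 to 0.33). Smarcd2, which encodes BAF60b, had 842 ± 85.2 and 818 ± 122 (log2 change -0.05, interval -0.41 to 0.32). A signal depends on its probes, so the levels of different genes were not compared. The change in the log2 ratio between paralogues can be compared, however, and the log2 ratio of Smarcd1 to Smarcd3 differed by -1.90 ± 0.31 (SE) between shRNA and control arrays and that of Smarcd2 to Smarcd3 by -1.83 ± 0.24 (SE).

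**Figure D2:**
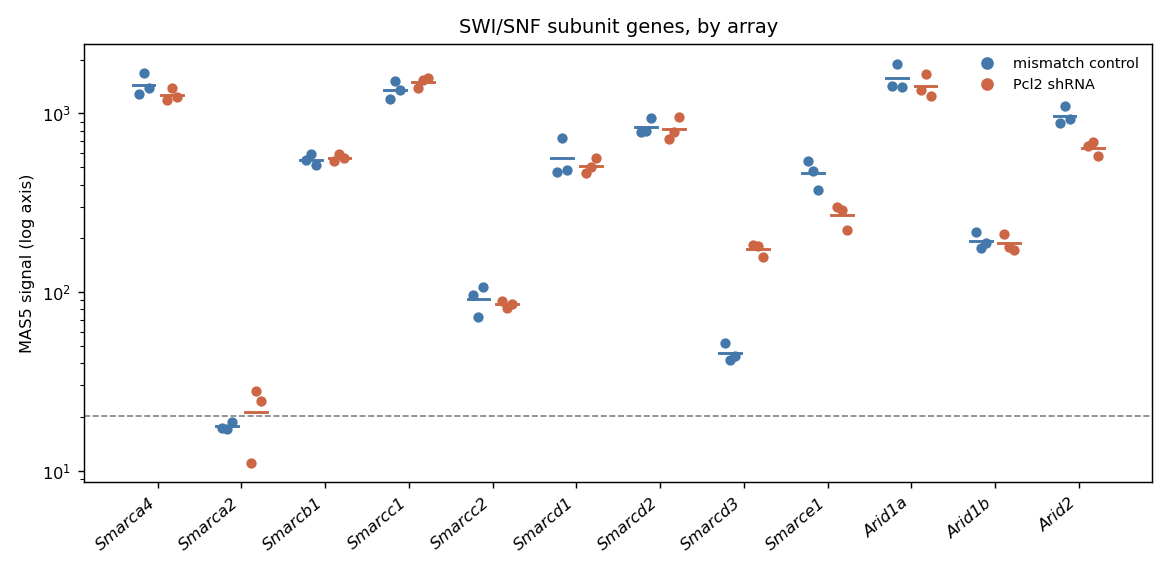
MAS5 signal (vertical log axis) of the SWI/SNF subunit genes on each array; points are arrays, bars are group means, and the dashed line is the highest background signal of 20.3. Smarcd3 sits at 41.5 to 51.6 in control and 156 to 184 in shRNA arrays, while Smarca4, Smarcb1 and Smarcc1 overlap between the groups.

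Smarce1 and Arid2 fell. Smarce1 encodes BAF57, a subunit with a DNA-binding HMG domain. Its signal was 544, 479 and 374 in the control replicates and 297, 288 and 223 in the shRNA replicates. All shRNA arrays were below all control arrays, and replicate 3 was the lowest of each group. The mean fell from 466 ± 85.9 to 270 ± 40.8 (SD, n = 3 each), a log2 change of -0.77 (SE 0.19, limma adjusted p = 0.0269), and a further probe set separated the groups the same way with a log2 change of -0.64. The call was lost without control replicate 1, control replicate 2, shRNA replicate 2 or shRNA replicate 3, where the adjusted p was 0.0995, 0.068, 0.0715 and 0.0907.

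Arid2 encodes the BAF200 subunit of PBAF, a SWI/SNF form that lacks Arid1a and Arid1b. Its signal was 884, 1097 and 930 in control and 660, 694 and 574 in shRNA arrays. The groups did not overlap, and the shRNA arrays lay close together. The mean fell from 970 ± 113 to 643 ± 61.5 (SD, n = 3 each), a log2 change of -0.59 (SE 0.16, limma adjusted p = 0.0346). Its 4 probe sets gave log2 changes of -0.59 to -0.23, and 3 of them separated the groups. The call was lost in each of the 6 fits without 1 array, where the adjusted p was 0.0544 to 0.112, and also with the mean of the probe sets (log2 change -0.44, adjusted p 0.0749) and without the intensity trend (adjusted p 0.0689).

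The other 8 SWI/SNF genes tested did not pass. Smarca4, which encodes the ATPase Brg1, had 1447 ± 202 and 1274 ± 105 (log2 change -0.18, interval -0.52 to 0.17). Smarcb1, a core subunit known as Snf5, had 552 ± 40.4 and 565 ± 25.9 (log2 change 0.04, interval -0.29 to 0.36). Smarcc1, the BAF155 scaffold, had 1356 ± 153 and 1501 ± 97.5 (log2 change 0.15, interval -0.18 to 0.48). These are core parts of the complex, and a change of 1.5-fold or more lay outside all 3 intervals. Smarcc2, the paralogous scaffold BAF170, had a log2 change of -0.07 (interval -0.54 to 0.39), Arid1a of -0.15 (interval -0.53 to 0.24) and Arid1b of -0.04 (interval -0.44 to 0.35). Smarca2, which encodes the alternative ATPase Brm, was too dim to test. Its brighter probe set had 17.3, 17.2 and 18.8 in control and 11.1, 28.0 and 24.7 in shRNA arrays, and its other probe set had 18.9, 13.5 and 21.3 in control and 12.3, 11.8 and 11.03 in shRNA arrays. These signals lay around or below the background of 20.3, and the probe sets differed in direction, so no change was read from them.

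Genes that work with SWI/SNF were taken from a list of known partners. Of 12 tested, 2 rose and 0 fell. Bicral, a subunit of the non-canonical SWI/SNF complex, rose from 238 ± 87.3 to 673 ± 145 (log2 change 1.51, SE 0.26, limma adjusted p = 0.00428). Actl6a, the actin-related subunit BAF53a, rose from 1579 ± 152 to 2259 ± 88.1 (log2 change 0.52, SE 0.14, limma adjusted p = 0.0385), but lost the call in each of the 6 fits without 1 array (adjusted p 0.0504 to 0.155), with median centring (0.119), no signal filter (0.0545) and no intensity trend (0.0855), and without cross-hybridising probe sets (0.131). The block called 3 of the 12, all higher.

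In the ISWI and SNF2-like group, 0 of 5 genes passed the limma test, 1 had an unadjusted p under 0.05, and the block called 1. That gene was Smarcad1, a remodeller known from heterochromatin upkeep and DNA end resection. Its signal was 834, 945 and 561 in control and 1563, 1385 and 1018 in shRNA arrays. The lowest shRNA array, replicate 3, was above the highest control array, and replicate 3 was also the lowest control array. The log2 change was 0.77 (SE 0.23), with an adjusted p of 0.0514 by limma without the block and 0.00207 with it. Smarca5, which encodes the ISWI ATPase Snf2h, had 1862 ± 321 and 1909 ± 194 (log2 change 0.04, interval -0.32 to 0.41), and its paralogue Smarca1, or Snf2l, had 190 ± 39.8 and 144 ± 38.9 (log2 change -0.41, interval -0.94 to 0.13). Bptf, the largest subunit of the NURF complex, and Smarcal1, an annealing helicase of replication forks, had log2 changes of -0.07 and -0.09. Among 8 ISWI partners tested, 1 fell and 0 rose. It was Baz1a, the Acf1 subunit, with 795 ± 176 and 439 ± 154 and overlapping groups (log2 change -0.88, SE 0.25, limma adjusted p = 0.0486). The call of Baz1a was lost without control replicate 1 or 3 or shRNA replicate 2 or 3 (adjusted p 0.102 to 0.151), with quantile normalization (0.0509), a pseudocount of 1 (0.0504), no signal filter (0.0783) and no intensity trend (0.0794), and the log2 change was -1.325 with the mean of its probe sets.

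Among the CHD remodellers, 2 of 10 changed, in opposite directions. Chd2, a remodeller linked to deposition of histone H3.3, had 196, 288 and 230 in control and 374, 441 and 438 in shRNA arrays. The shRNA arrays were all above the control arrays. The mean rose from 238 ± 46.5 to 418 ± 37.9 (SD, n = 3 each), a log2 change of 0.81 (SE 0.18, limma adjusted p = 0.017). A second, dimmer probe set gave 0.44 with overlapping groups, and with the mean of the probe sets the log2 change was 0.62 and the adjusted p 0.0609. The call was also lost without control replicate 1, shRNA replicate 2 or shRNA replicate 3, where the adjusted p was 0.0639, 0.0831 and 0.0559.

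Chd7, the gene mutated in CHARGE syndrome, is known for its binding at enhancers in embryonic stem cells. Its signal was 146, 289 and 264 in control and 92.2, 108 and 119 in shRNA arrays. The shRNA arrays lay within a narrow range below all controls, and control replicate 1 was well below the other controls. The mean fell from 233 ± 76.6 to 106 ± 13.6 (SD, n = 3 each), a log2 change of -1.03 (SE 0.26, limma adjusted p = 0.026), and the other probe set separated the groups with -0.75. The adjusted p was 0.0823, 0.0723, 0.0871 and 0.0798 without control replicate 2, control replicate 3, shRNA replicate 1 and shRNA replicate 2, and 0.00567 without control replicate 1.

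The other 8 CHD genes did not pass. Chd3 and Chd4 encode the Mi-2 ATPases of NuRD. Chd3 had 133, 116 and 134 in control and 83.3, 92.3 and 81.8 in shRNA arrays. The groups did not overlap, and the log2 change of -0.54 had an adjusted p of 0.0872 by limma and 0.0425 with the block. Chd4 had 1080 ± 411 and 939 ± 88.2 (log2 change -0.14, interval -0.66 to 0.38), and its control arrays ranged from 781 to 1549. Chd1, a remodeller known to be needed for open chromatin in embryonic stem cells, had a log2 change of -0.36 (interval -0.80 to 0.08), and Chd9 one of -0.43 (interval -0.88 to 0.02). Chd1l, a remodeller recruited by poly(ADP-ribose), had every shRNA array above the controls (374 ± 44.5 and 444 ± 20.7) but a log2 change of 0.25 (interval -0.10 to 0.60). Chd5, Chd6 and Chd8 overlapped between the groups, with log2 changes of -0.02, -0.30 and 0.11.

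**Figure D3:**
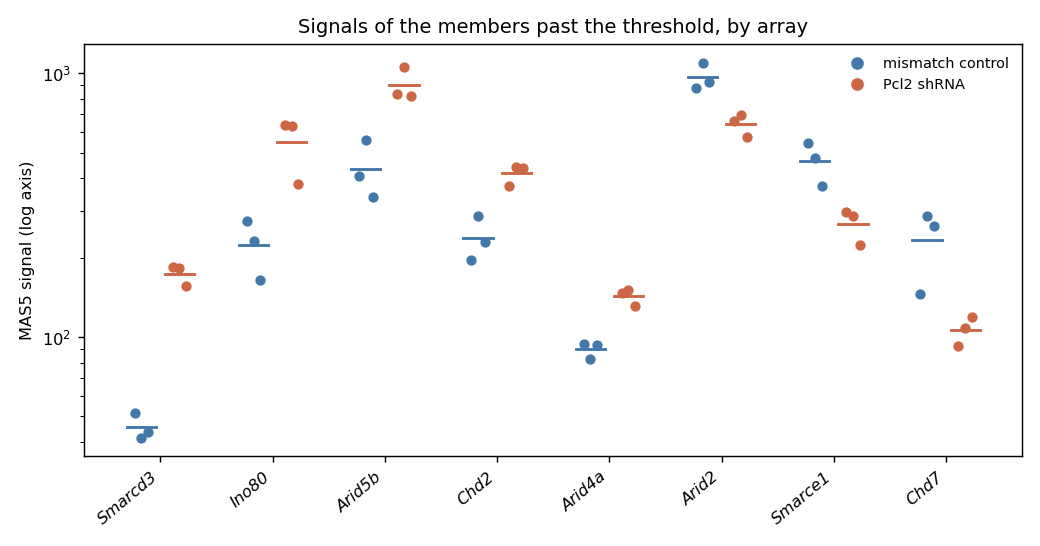
MAS5 signal (vertical log axis) on each array for the 8 genes past the threshold; points are arrays and bars are group means. In each gene the 3 shRNA arrays lie wholly above or wholly below the 3 control arrays, with the widest gap for Smarcd3 (51.6 against 156).

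Genes of the INO80 complex did not all move in the same direction, and 1 of the 4 tested, Ino80, passed limma without the block. Ino80 encodes the ATPase of this complex, which spaces nucleosomes and exchanges histone variants. Its signal was 277, 231 and 165 in control and 640, 633 and 382 in shRNA arrays. Every shRNA array was above every control array, and replicate 3 was the lowest of each group. The mean rose from 224 ± 56.0 to 551 ± 147 (SD, n = 3 each), a log2 change of 1.26 (SE 0.25, limma adjusted p = 0.00831). A second probe set also separated the groups, with 72.9, 79.9 and 52.5 in control and 182, 248 and 179 in shRNA arrays (log2 change 1.48). Without any single array the adjusted p stayed between 0.00416 and 0.0428.

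Ino80c, an accessory subunit, went the other way. Its signal was 226, 158 and 124 in control and 114, 106 and 57.5 in shRNA arrays. The groups did not overlap, although the highest shRNA array was near the lowest control array. The log2 change was -0.83 (SE 0.29), with an adjusted p of 0.0929 by limma and 0.00582 with the block. Ino80d had 232 ± 29.5 and 295 ± 13.3 (log2 change 0.34, interval -0.03 to 0.72), and Ino80e had 316 ± 82.9 and 325 ± 33.9 (log2 change 0.06, interval -0.40 to 0.53).

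Ino80b, another accessory subunit, lay just under the signal filter and was not tested. Its signal was 27.5, 33.6 and 42.1 in control and 16.9, 6.02 and 11.1 in shRNA arrays. All control arrays were above the background of 20.3 and all shRNA arrays below it, so its signal was at least 1.5-fold lower. The background gauge itself was higher in shRNA arrays. With no signal filter its adjusted p was 0.0406, and with a pseudocount of 21 it was 0.0232.

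**Figure D4:**
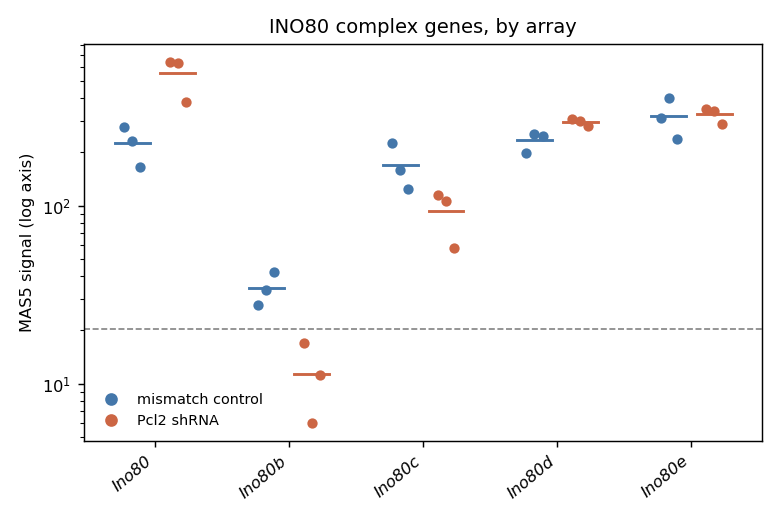
MAS5 signal (vertical log axis) of the INO80 complex genes on each array; points are arrays, bars are group means, and the dashed line is the highest background signal of 20.3. Ino80 is higher in all shRNA arrays (382 to 640 against 165 to 277), and Ino80e overlaps. Ino80b and Ino80c lie lower in all shRNA arrays, but Ino80b was not tested and Ino80c passed only with the replicate block.

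The partners of this family, listed with those of SRCAP and TIP60, numbered 24 tested genes, of which 1 rose and 0 fell. A positive change was seen in 21 of the 24 and in 6859 of all 13095 genes. Actr6, an actin-related subunit of SRCAP, rose from 420 ± 29.4 to 624 ± 85.0 (log2 change 0.56, SE 0.16, limma adjusted p = 0.0478), and lost the call in each of the 6 fits without 1 array (adjusted p 0.0753 to 0.166), with median centring (0.0859), no signal filter (0.0566), no intensity trend (0.0814) and array weights (0.0507). The AAA+ helicase gene Ruvbl1, whose product is shared by these complexes and which was picked after its values were seen, had 1182 ± 243 and 761 ± 116 (log2 change -0.62), with an adjusted p of 0.0568 by limma and 0.00415 with the block. The block called 3 of the 24, 2 higher and 1 lower.

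Of the 7 class I, class IIb and class IV deacetylases tested, 0 passed the limma test, 0 had an unadjusted p under 0.05, and the block called 0. Hdac1 and Hdac2 encode the catalytic subunits of NuRD, Sin3 and CoREST. Hdac1 had 1790, 1844 and 1322 in control and 2007, 2042 and 1598 in shRNA arrays. The groups overlapped, and the log2 change was 0.19 (interval -0.20 to 0.59). Hdac2 had 1308 ± 172 and 1382 ± 208 (log2 change 0.08, interval -0.29 to 0.45). Hdac3, the deacetylase of NCoR, had 378 ± 20.3 and 424 ± 22.6, with every shRNA array above the controls but a log2 change of 0.16 (interval -0.17 to 0.50). Hdac8 had a log2 change of -0.25 (interval -0.72 to 0.23), Hdac6, a deacetylase of tubulin, one of 0.25 (interval -0.23 to 0.74), Hdac10 one of 0.00 (interval -0.53 to 0.52) and Hdac11 one of -0.18 (interval -0.62 to 0.25).

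Of the class IIa deacetylases, which act mainly as signal-dependent corepressors, 0 of 3 passed by limma, 1 had an unadjusted p under 0.05, and 1 passed with the block. Hdac7 had 146, 119 and 212 in control and 83.7, 90.5 and 111 in shRNA arrays. The shRNA arrays were all lower, and replicate 3 was the highest of each group. The log2 change of -0.67 (SE 0.24) had an adjusted p of 0.0936 by limma and 0.0167 with the block, and a second probe set separated the groups with -0.99. Hdac4 and Hdac5 had log2 changes of 0.09 (interval -0.42 to 0.60) and -0.22 (interval -0.72 to 0.28). Hdac9 was too dim to test.

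The 3 Mta genes encode alternative subunits of NuRD, the complex that joins remodelling to deacetylation. By limma 0 of 3 passed, 1 had an unadjusted p under 0.05, and the block called 1, Mta1. Mta1 had 510, 712 and 838 in control and 249, 454 and 507 in shRNA arrays. The highest shRNA array, 507, was just under the lowest control array, 510, and replicate 1 was the lowest of each group. The log2 change was -0.79 (SE 0.27), with an adjusted p of 0.0903 by limma and 0.00205 with the block. Mta2 had 544 ± 61.3 and 513 ± 47.6 (log2 change -0.08, interval -0.43 to 0.27), and Mta3 had 617 ± 63.2 and 757 ± 115 (log2 change 0.29, interval -0.09 to 0.66). The log2 ratio of Mta1 to Mta3 differed by -1.08 ± 0.25 (SE) between shRNA and control arrays, with no overlap between the groups. That ratio rests on the brightest probe set of Mta3. The dimmer Mta3 probe sets above the filter went the other way, with log2 changes of -0.13 and -0.11.

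The methyl-CpG genes, among them Mbd3, a core NuRD subunit, gave 0 calls out of 5 by limma and 0 with the block, and 0 had an unadjusted p under 0.05. Mbd3 had 413 ± 87.3 and 411 ± 105 (log2 change -0.02, interval -0.51 to 0.48). The log2 change of Mbd4, a DNA glycosylase, was 0.26 (interval -0.14 to 0.66), that of Mbd1 was -0.21 (interval -0.62 to 0.19), and those of Mbd2 and Mbd6 were -0.15 and -0.07.

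Among 8 NuRD partners tested, 1 fell and 0 rose. Zmynd8, a bromodomain and PHD-finger reader associated with NuRD, had 843, 1286 and 1331 in control and 179, 254 and 217 in shRNA arrays. The highest shRNA array was far below the lowest control array. The mean fell from 1153 ± 270 to 217 ± 37.6 (SD, n = 3 each), a log2 change of -2.36 (SE 0.21, limma adjusted p = 0.000127), and in the fits without 1 array the adjusted p was 0.000238 to 0.000906. With the mean of its probe sets the log2 change was -1.06 (adjusted p 0.00282).

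Of 17 partners in Sin3, CoREST and NCoR, 1 rose and 0 fell. Rcor2, the CoREST scaffold known to be abundant in embryonic stem cells, rose from 701 ± 128 to 1079 ± 50.8 (log2 change 0.63, SE 0.17, limma adjusted p = 0.0318), and kept the call only without control replicate 2 among the 6 fits without 1 array (adjusted p 0.0132, against 0.0723 to 0.113 in the others). Rcor2 also lost it with median centring (0.101) and with no intensity trend (0.0647). Of 7 sirtuins, the NAD-dependent deacetylases, Sirt1 rose (log2 change 0.98, limma adjusted p = 0.00622) and Sirt2 fell (log2 change -1.78, limma adjusted p = 0.00862). Sirt2 had 160.1, 187 and 160.1 in control and 20.9, 46.9 and 81.1 in shRNA arrays, and its lowest array lay just above the background of 20.3. Of 9 acetyltransferases, the opposing enzymes, Kat2b and Kat6b rose, with log2 changes of 1.23 (limma adjusted p = 0.00147) and 1.28 (limma adjusted p = 0.00113), and 0 fell. By limma 0 of 12 other bromodomain genes and 0 of 10 other SNF2 helicase and methyl-CpG genes passed, 3 of each had an unadjusted p under 0.05, and the block called 2 and 3 of them. Bromodomain genes placed in another list, such as Zmynd8, which fell, are not among these 12. Over all 107 partner genes tested, 10 were called (9.35%), 7 higher and 3 lower, below the background of 12.6 percent, and the block called 24 (22.4%), 19 higher and 5 lower, against 23.8 percent of all genes. The 14 genes it added, named after their values were seen, were Dpf1, Baz2a, Gatad2b, Kdm1a, Ing3, Tbl1xr1, Sirt3, Hat1, Taf1, Hells, Rad54l and Ttf2 on the higher side and Ruvbl1 and Zmynd11 on the lower side.

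The ARID genes outside SWI/SNF share the AT-rich interaction domain, which binds DNA. Of 6 tested, Arid5b and Arid4a rose and 0 fell. Arid5b is known as a coactivator that works with the histone demethylase Phf2. Its signal was 407, 557 and 339 in control and 834, 1059 and 824 in shRNA arrays. All shRNA arrays were above all control arrays, and replicate 2 was the highest of each group. The mean rose from 434 ± 111 to 906 ± 133 (SD, n = 3 each), a log2 change of 1.07 (SE 0.20, limma adjusted p = 0.00689). All 4 of its bright probe sets separated the groups, with log2 changes of 0.66 to 1.34, and without any single array the adjusted p was 0.00368 to 0.0402.

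Arid4a encodes a retinoblastoma-binding subunit of Sin3 complexes. Its signal was 94.0, 82.4 and 93.5 in control and 147, 150 and 131 in shRNA arrays, with no overlap and a small spread in each group. The mean rose from 90.0 ± 6.53 to 143 ± 10.2 (SD, n = 3 each), a log2 change of 0.63 (SE 0.18, limma adjusted p = 0.0477). The call was lost in each of the 6 fits without 1 array (adjusted p 0.0743 to 0.185), with median centring (0.0648) and with no signal filter (0.0697). Its paralogue Arid4b had 223 ± 30.3 and 252 ± 24.5 (log2 change 0.17, interval -0.22 to 0.56). Arid5a, an RNA-binding paralogue of Arid5b, had 47.9 ± 9.11 and 56.1 ± 19.2 (log2 change 0.17, interval -0.43 to 0.77).

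Arid3a and Arid3b passed only with the block, both lower. Arid3a, known for a role in the trophoblast lineage, had 271, 188 and 328 in control and 125, 160 and 186 in shRNA arrays. The groups did not overlap, but shRNA replicate 3 at 186 was close to control replicate 2 at 188. Its log2 change was -0.69, with an adjusted p of 0.0851 by limma and 0.0192 with the block. Its paralogue Arid3b had 434, 420 and 399 in control and 229, 405 and 225 in shRNA arrays, where shRNA replicate 2 lay inside the control range (log2 change -0.59, adjusted p of 0.124 by limma and 0.0363 with the block). The fall of trophectoderm markers in the same arrays, given above, moved with these values, and its part in them was not tested.

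Of the 6 Brd genes tested, 0 passed by limma, 0 passed with the block, and 1, Brd8, had an unadjusted p under 0.05. The BET family members Brd2 and Brd3, which bind acetylated histones at active genes, had 1254 ± 297 and 1245 ± 264 (log2 change -0.01, interval -0.49 to 0.47) and 412 ± 84.1 and 362 ± 68.3 (log2 change -0.18, interval -0.64 to 0.28). Brd8, a TIP60 subunit, had 631, 840 and 727 in control and 980, 901 and 933 in shRNA arrays. Its groups did not overlap, and the log2 change of 0.36 had an adjusted p of 0.171 by limma. Brd7, a PBAF subunit, had 290, 311 and 295 in control and 209, 221 and 277 in shRNA arrays, with no overlap and a log2 change of -0.35 (limma adjusted p = 0.236). Brd1 and Brd9 had log2 changes of 0.07 and -0.13.

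Paralogues that can replace each other in a complex were compared by the change in the log2 ratio of their signals, array by array. Of 15 pairs compared, 7 had ratios that did not overlap between the groups, and each of these reached 0.1, the smallest p that an exact two-sided permutation test of 3 against 3 arrays allows (adjusted p = 0.214 over the 15 pairs). No pair could therefore pass 0.05. Of all single genes tested, 31.2 percent did not overlap between the groups, and no such share was obtained for ratios of other genes. The pairs are not independent, since several share Smarcd3 or an Mta gene. Besides Smarcd1 and Smarcd2 against Smarcd3, the log2 ratio differed by -0.71 ± 0.35 (SE) for Mta1 to Mta2, by -0.37 ± 0.14 (SE) for Mta2 to Mta3, by 0.46 ± 0.15 (SE) for Arid4a to Arid4b and by 0.45 ± 0.16 (SE) for Smarca5 to Smarca1. The remaining pair was Mta1 to Mta3, given above. Both ratios to Mta3 rest on its brightest probe set, and its dimmer ones changed in the other direction. The ratio of Smarcc1 to Smarcc2, of Hdac1 to Hdac2 and of Arid1a to Arid1b differed by 0.22 ± 0.25, 0.12 ± 0.25 and -0.10 ± 0.26 (SE) between the groups.

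Several probe sets measured the same gene in 35 of the 60 cases. In 24 of these all probe sets above the filter changed in the direction of the brightest, and in 11 at least 1 went the other way. The 11 were Smarcd2, Bptf, Smarcal1, Chd1, Chd4, Chd9, Ino80e, Hdac4, Mta3, Mbd1 and Arid4b, none of them past the threshold. Of the 8 called genes, 6 had a further probe set above the filter, and all of those had the sign of the brightest. Smarcd3 and Arid4a rested on 1 probe set each above the filter. Below the filter the probe sets of Arid4a disagreed. One was lower in every shRNA array (24.1 ± 2.29 and 15.6 ± 4.07, log2 change -0.48) and another higher in every shRNA array (13.7 ± 2.18 and 26.1 ± 7.74, log2 change 0.66). A probe set of Smarce1 below the filter had a log2 change of 0.06 with overlapping groups.

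**Figure D5:**
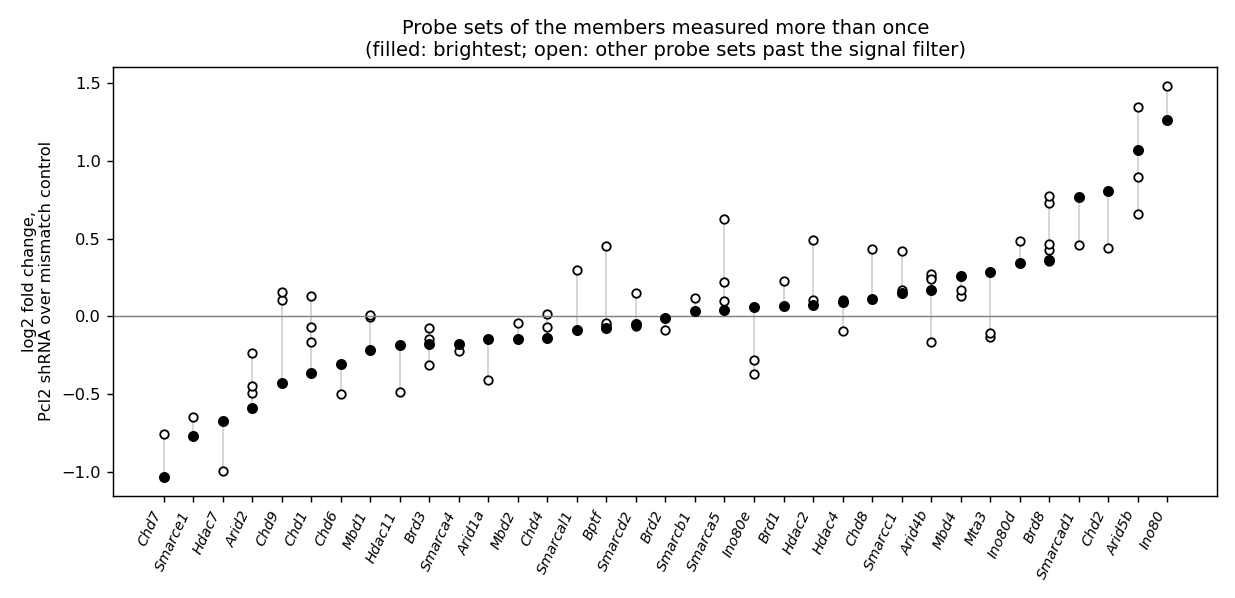
Log2 change of every probe set above the signal filter (vertical axis) for the 35 genes with several; filled points are the brightest probe set and open points the others. The probe sets of Ino80 (1.26 and 1.48), Arid5b (0.66 to 1.34) and Chd7 (-1.03 and -0.75) lie on the same side of 0.

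Polycomb-like proteins are known to bind unmethylated CpG-rich DNA, so the sequence upstream of Smarcd3, Ino80 and Arid5b is shown from RefSeq (GRCm38.p6). These 3 genes kept their call in all 12 other settings and in all 6 fits without 1 array. Each sequence is the 250 bases before an annotated start, 5′ to 3′ on the gene's strand, with each CG dinucleotide in capitals. The windows are chr5:24602003-24602252 for Smarcd3, chr2:119477688-119477937 for Ino80 and chr10:68278727-68278976 for Arid5b, all on the minus strand.
Smarcd3: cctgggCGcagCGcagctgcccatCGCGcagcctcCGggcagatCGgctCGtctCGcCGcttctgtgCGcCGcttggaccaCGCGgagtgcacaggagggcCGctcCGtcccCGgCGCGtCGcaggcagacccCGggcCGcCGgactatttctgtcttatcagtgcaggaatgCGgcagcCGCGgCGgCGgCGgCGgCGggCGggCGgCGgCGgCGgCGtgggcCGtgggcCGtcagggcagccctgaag
Ino80: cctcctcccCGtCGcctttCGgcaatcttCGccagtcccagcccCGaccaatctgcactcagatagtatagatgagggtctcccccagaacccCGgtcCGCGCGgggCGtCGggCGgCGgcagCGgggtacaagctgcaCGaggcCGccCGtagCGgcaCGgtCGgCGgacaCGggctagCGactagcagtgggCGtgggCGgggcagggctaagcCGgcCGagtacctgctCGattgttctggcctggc
Arid5b: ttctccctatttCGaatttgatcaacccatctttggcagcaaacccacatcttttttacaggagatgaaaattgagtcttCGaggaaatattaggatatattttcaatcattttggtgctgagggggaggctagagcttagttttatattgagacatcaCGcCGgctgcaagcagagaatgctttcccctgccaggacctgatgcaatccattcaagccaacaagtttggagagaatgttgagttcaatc
The motif searched was CG, which reads the same on both strands. Smarcd3 holds 38 of them, a number that 1.88% of all 32851 windows of this length reach or exceed. Ino80 holds 28, reached by 7.61% of windows, and Arid5b 4, reached by 62.2%. These 3 genes thus differed widely in the CpG content of their windows. They were the only called genes with such a window, so the other called genes could not be examined for it. Counts as high as that of Smarcd3 were also found in genes that did not pass limma without the block. Smarcc2 held 40 and Mta1 39, and the windows of all 66 genes ran from 0 to 40. Of the 66 genes, 48 matched a RefSeq entry, with 64 windows and a median of 21 CG per window, against a median of 6 over all windows. Some genes had several windows, and all windows were not matched to these genes by signal. Of the 60 genes tested, 44 lay at or above the median signal of all genes tested. The higher median was therefore not read as a trait of this group of genes. CG content is a description of the sequence, and no binding was measured here.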

How the data were processed

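RNA of 6 cultures of R1 mouse embryonic stem cells, 3 with the Pcl2 shRNA and 3 with the mismatch sequence, was measured on 1 array each. The deposited table holds 45101 probe sets as MAS5 signals (intensity, linear scale), which the authors obtained with MAS5 in GCOS 1.4 per the labels' protocols and the submitters' processing notes. The arrays have the same trimmed mean, so each is scaled to a common average, and a change is relative to it. Genes were named through the platform annotation: 34945 probe sets had 1 gene, 932 had several and were left out, and 64 control probe sets were not tested.

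The test ran on log2(signal + 7), whose pseudocount, 7, is the 20th percentile over the table and understates changes of dim genes. Probe sets with a mean under the 40th percentile (a signal of 20.2) were left out, and the probe set with the highest mean log2 signal stood for each gene. limma 3.58.1 in R 4.3.3 (lmFit, eBayes with trend) was fitted to all 13095 genes, with Benjamini-Hochberg adjustment and confidence intervals of 95% that are not adjusted. The script was tested on simulated data. Fits without 1 array kept the tested genes and probe sets of the full fit. Background was the highest signal, 20.3, of 27 bacterial control probe sets without a spike.

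The labels number the replicates 1 to 3 in both groups. Deviations from the group means correlated at 0.24 to 0.33 between arrays of the same number and at -0.29 to -0.02 between the others. The deviations of a group sum to 0, so positive values for the same number push the others below 0. The negative range is therefore no separate evidence. A second limma fit took the replicate number as a block, and its value stands beside each result whose call it changes. What the number stands for is not given in the sources used here. Alternatives covered the normalization, the pseudocount, the signal filter, the choice of probe set, the variance model, the block, array weights and leaving out each array. The setting called without cross-hybridising probe sets left out every probe set with the suffix _x_at, _s_at or _a_at, whether or not it cross-hybridises. The depth of arrays has no count, and their number limits the precision.

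The genes and lists were chosen with earlier results of these data known. Described in full were the genes past the threshold, the leading genes of each family by signal, genes with probe sets of opposite sign and partners past the threshold. The other genes of the families are given as values, those passing only with the block array by array.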

Additional observations from a re-analysis of the deposited data

How the results depend on the processing

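The 12 other settings called 6 to 15 of these genes, against 8, and Smarcd3, Ino80, Arid5b, Chd7 and Smarce1 kept their call under all 12. Genes that rose numbered 5, and 3 to 5 without 1 array. Genes that fell numbered 3, but 9 with the replicate block, 5 with array weights and 1 in each fit without 1 array. Partner genes that rose numbered 7, but 4 with median centring, 4 without the intensity trend, 19 with the block, 13 with array weights and 4 to 8 without 1 array, and those that fell numbered 3, but 5 with the block. The log2 change of Mtf2 without 1 array was -0.84 to -0.63. Beyond the calls named in the report, the block changed no other call of these genes. Median centring moved the median of all genes from 0.02 to -0.04, and all genes called were 952 to 1606 without 1 array, against 1652. The 7 paralogue pairs without overlap were 6 with the mean of the probe sets. The cause of these differences was not tested.

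No called gene changed sign, but some changes near 0 did. Under quantile normalization Arid1b was 0.039, Mbd3 0.033 and Smarca5 -0.0056, and under median centring Smarca5 was -0.015 and Smarcb1 -0.024. With the mean of the probe sets Bptf was 0.071, Ino80e -0.19, Smarcal1 0.10 and Smarcd2 0.014, and without cross-hybridising probe sets Mta3 was -0.13. With array weights Brd2 was 0.11, Chd5 0.021, Hdac10 0.069 and Mbd3 0.16. Without 1 array the log2 change ran from -0.13 to 0.041 for Arid1b, -0.057 to 0.38 for Arid5a, -0.16 to 0.065 for Bptf, -0.034 to 0.22 for Brd1, -0.16 to 0.18 for Brd2, -0.34 to 0.15 for Chd4, -0.19 to 0.090 for Chd5, -0.097 to 0.34 for Chd8, -0.11 to 0.16 for Hdac10, -0.042 to 0.17 for Hdac2 and -0.088 to 0.22 for Hdac4. It ran from -0.12 to 0.25 for Ino80e, -0.27 to 0.025 for Mbd2, -0.21 to 0.15 for Mbd3, -0.26 to 0.11 for Mbd6, -0.16 to 0.0085 for Mta2, -0.031 to 0.18 for Smarca5, -0.22 to 0.051 for Smarcal1, -0.013 to 0.090 for Smarcb1, -0.23 to 0.037 for Smarcc2, -0.22 to 0.094 for Smarcd1 and -0.16 to 0.046 for Smarcd2. Signal over background limits the dim genes: 6 of the 66 could not be tested.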

Other observations

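The 6 genes too dim to test were Smarca2, Ino80b, Hdac9, Mbd3l1, Mbd3l2 and Ino80dos, a transcript listed under its own symbol. The brightest probe set of Hdac9 had signals of 9.54 to 16.7 over the 6 arrays, that of Mbd3l1 of 5.64 to 16.4 and that of Mbd3l2 of 3.78 to 19.7, all below the background of 20.3. A second probe set of Mbd3l2 had 1.58 to 2.74 in control and 17.4, 2.58 and 29.1 in shRNA arrays, of which the last was above that background. Ino80dos had signals of 5.74 to 6.39 in control and 9.43 to 22.3 in shRNA arrays. Its control arrays and 2 of its shRNA arrays were below that background, so no change was read from it.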
